A study of Homo sapiens with 2 samples.

Results

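The genes described here encode the core of the spliceosome and the SR proteins, the machinery that removes introns from messenger RNA precursors. They are 54 genes, of 61806 in the deposited table, chosen by symbol and set into 8 groups by role. Polyadenylated RNA was measured in SAS, a human tongue carcinoma cell line of epithelial origin. The treated cells received an siRNA against COL17A1, which encodes the hemidesmosome collagen XVII, and the control cells a negative control siRNA. Both were transfected with a lipid reagent and harvested after 48 hours, both are labelled wild type, and each condition is 1 library of 1 line and 1 siRNA.

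The spliceosome assembles anew on each intron from small nuclear ribonucleoproteins (snRNPs), complexes of a small RNA and proteins. The U1 snRNP pairs with the 5' splice site, the U2 snRNP with the branch point, and the tri-snRNP of U4, U6 and U5 then joins to form the catalytic centre. SR proteins bind exons through RNA recognition domains and attract these complexes through domains rich in serine and arginine, and their genes are themselves regulated by splicing. Counts per gene do not separate such isoforms, and splicing itself was not measured.

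The libraries held 21601195 counts after COL17A1 siRNA and 15980152 counts in the control. COL17A1 had 411 counts in the COL17A1 siRNA library and 3116 in the control library, a log2 ratio of -3.39 [-3.55 to -3.25]. The epithelial genes KRT5, KRT14, EPCAM and CDH1 were present, with at least 3857 counts in each library, and the leukocyte gene PTPRC and the endothelial gene PECAM1 had 0 counts in both. Each log2 ratio here is scaled counts after COL17A1 siRNA over those of the control, and the brackets give an exact 95% interval that covers counting error alone. A gene said to be at a value had that log2 ratio. With 1 library per group no ratio has a replicate check, no p-value can be given, and a difference between these libraries cannot be told apart from variation between cultures. With 1 siRNA against COL17A1, an effect of less COL17A1 and an effect of that siRNA on other transcripts also cannot be told apart. In bulk RNA, fewer cells of a type and less RNA per cell also cannot be told apart. Each of the 54 genes passed the filter of a mean of at least 1 CPM (counts scaled to the library total), the lowest being U2AF1 at 4.38 CPM. By coordinates, 10 of them overlap another gene on their strand and 21 a gene on the other strand, where reads may be shared.

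PRPF8 stood apart from the other members. Among the 54 genes, 5 were at least 1.5-fold lower after COL17A1 siRNA with an interval that excluded a ratio of 1, which is 9.26% against 11.7% of all 13375 tested genes. They were PRPF8, SRRM2, CWC22, PRPF4B and SRRM1. Only U2AF1 was at least 1.5-fold higher by the same rule, 1.85% of the members against 12.2% of all tested genes, and its count is uncertain as described below. At 2-fold, PRPF8 and SRRM2 were lower, where 3.59% of all tested genes were, and U2AF1 was higher, where 3.04% of all tested genes were. The other 48 members lay within 1.5-fold, and the median log2 ratio was -0.13 over the members and 0.03 over all tested genes. The share of lower members is near the background share and is not a result about the members as a set. Counting intervals are narrow at this depth: 33.1% of all tested genes had an interval above a ratio of 1 and 32.4% an interval below it, beside 19 and 28 of the members. Intervals narrow as counts rise, and the members were more abundant than tested genes in general, as given below. Shares of genes with an interval excluding a ratio of 1, here and in later paragraphs, were therefore not compared at equal abundance. Ratios above 1 made up 52.1% of all tested genes and ratios below 1 made up 47.9%, beside 21 and 33 of the members.

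Together the 54 genes took 0.662% of counts after COL17A1 siRNA (exact binomial 95% interval 0.659 to 0.666) and 0.720% in the control (0.716 to 0.724). Without PRPF8 these shares were 0.654% and 0.680%. Levels per length (FPKM, counts scaled to exonic size and library total) spanned a wide range. SF3B6 was the most abundant member at 166.82 FPKM after COL17A1 siRNA and 134.39 in the control. U2AF1 was the least at 0.58 and 0.21, though its count is uncertain as described below.

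**Figure D1:**
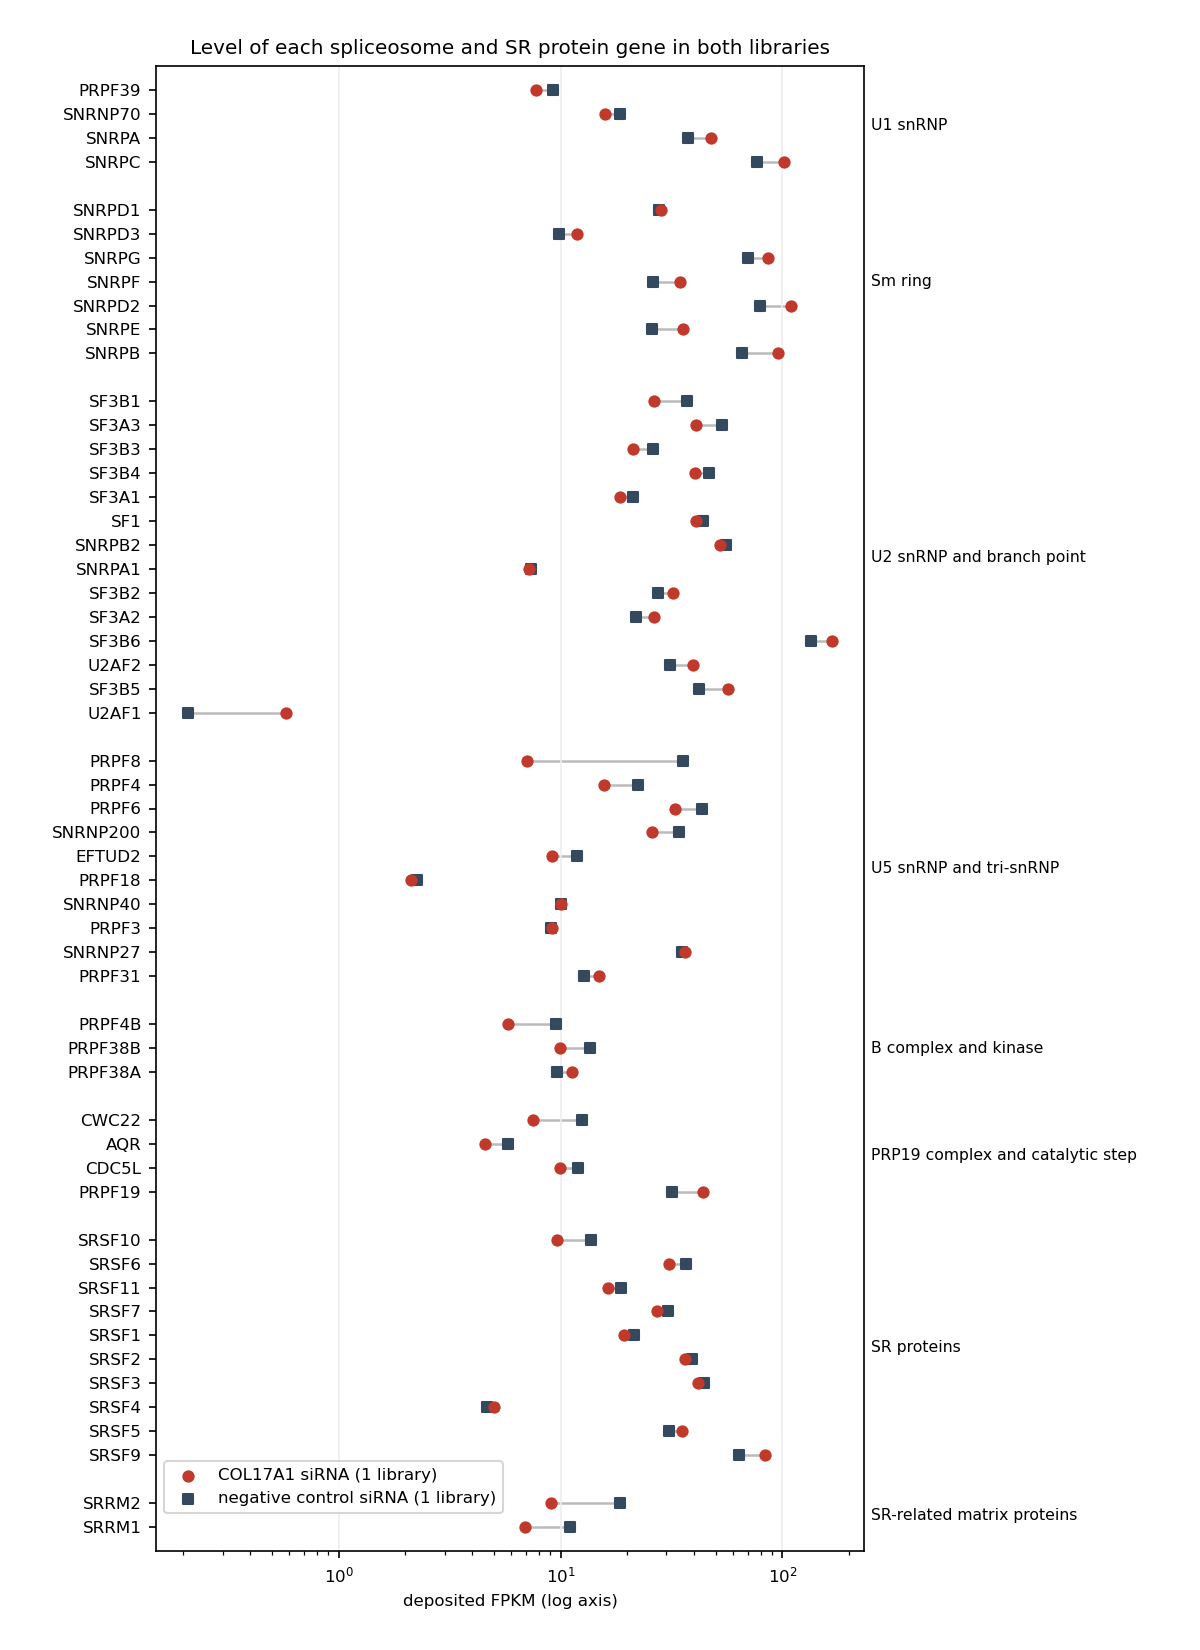
Deposited FPKM (log axis) of the 54 members in the COL17A1 siRNA library (red circles) and the negative control library (dark squares), 1 library each, grouped by role. PRPF8 shows the longest line between its points, with 7.04 FPKM after COL17A1 siRNA and 35.71 in the control.

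Promoter sequences were available from RefSeq (GRCh38.p14) for 48 of the 54 genes, as windows from 250 bases before to 50 after each listed start. Those of 4 members with a single listed start are shown, since they carry the contrasts described here: PRPF8 and SRRM2, the members lowest after COL17A1 siRNA, SNRPB, the highest of the Sm genes by ratio, and SF3B6, the most abundant member. Each is given 5' to 3' on the strand of the gene, and capitals mark CCGGAAG, a core sequence bound by ETS factors, in either orientation. The windows are chr17:1684818-1685117, minus strand (PRPF8), chr16:2752388-2752687, plus strand (SRRM2), chr20:2470740-2471039, minus strand (SNRPB) and chr2:24076277-24076576, minus strand (SF3B6).
PRPF8: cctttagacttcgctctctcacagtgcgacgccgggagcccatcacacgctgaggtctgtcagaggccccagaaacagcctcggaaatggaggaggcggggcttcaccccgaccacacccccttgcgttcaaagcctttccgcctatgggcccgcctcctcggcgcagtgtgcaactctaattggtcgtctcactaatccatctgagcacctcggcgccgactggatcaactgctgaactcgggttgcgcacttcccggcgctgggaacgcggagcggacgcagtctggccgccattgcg
SRRM2: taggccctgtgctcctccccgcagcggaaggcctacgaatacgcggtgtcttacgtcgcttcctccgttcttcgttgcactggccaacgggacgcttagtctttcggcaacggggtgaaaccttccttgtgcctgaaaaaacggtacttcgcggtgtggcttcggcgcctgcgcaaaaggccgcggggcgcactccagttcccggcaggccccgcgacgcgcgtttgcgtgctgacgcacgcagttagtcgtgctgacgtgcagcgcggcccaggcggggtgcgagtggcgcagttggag
SNRPB: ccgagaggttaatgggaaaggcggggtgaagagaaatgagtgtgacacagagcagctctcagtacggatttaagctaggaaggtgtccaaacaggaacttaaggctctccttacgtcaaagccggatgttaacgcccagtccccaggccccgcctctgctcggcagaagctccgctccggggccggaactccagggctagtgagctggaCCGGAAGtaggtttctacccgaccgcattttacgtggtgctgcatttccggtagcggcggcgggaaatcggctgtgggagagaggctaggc
SF3B6: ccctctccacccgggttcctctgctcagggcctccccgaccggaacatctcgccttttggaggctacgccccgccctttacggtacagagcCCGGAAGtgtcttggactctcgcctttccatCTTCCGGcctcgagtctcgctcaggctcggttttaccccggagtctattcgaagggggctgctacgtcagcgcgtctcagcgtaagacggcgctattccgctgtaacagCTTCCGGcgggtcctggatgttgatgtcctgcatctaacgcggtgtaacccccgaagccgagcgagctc

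CCGGAAG occurred in a listed window of 21 of the 48 member genes (43.8%) and of 23.0% of 10068 tested genes with a window, and in 10.3% of all 35116 windows. For each motif a gene counted if any of its windows matched, so shares of genes and shares of windows are unlike measures. Among the Sm genes 4 of 6 with a window held it and among the SR protein genes 2 of 9. The median log2 ratio was 0.06 over member genes that held it and -0.20 over those that did not. TATAAA, the TATA box, in either orientation, occurred in 5 of 48 member genes, in 8.14% of tested genes and in 11.5% of all windows, and 3 of the 5 were the SR protein genes SRSF3, SRSF7 and SRSF11. CCAAT occurred in 35.4% of member genes, 43.3% of tested genes and 34.6% of all windows. GGGCGG, a GC box, occurred in 56.2% of member genes, 77.9% of tested genes and 45.0% of all windows. Median log2 ratios of member genes with and without TATAAA were -0.20 and -0.07. For CCAAT these medians were -0.03 and -0.19, and for GGGCGG -0.13 and -0.13. Exonic size was not held equal in these splits or in that of CCGGAAG, and a link of any motif to the ratio was not tested. These 4 motifs were searched as spelled in either orientation, CCGGAAG and TATAAA cannot overlap each other, and a match describes these letters alone. The windows of PRPF8 and SRRM2 hold neither CCGGAAG nor TATAAA, and binding was not measured.

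Of the 10 genes of the U5 snRNP and tri-snRNP, 8 had ratios below 1 after COL17A1 siRNA (47.9% of all tested genes did), 5 of them with an interval excluding 1 (32.4% of all tested genes), and PRPF8 lay far below its partners. PRPF8 (ENSG00000174231, GRCh38 chromosome 17, 1650629 to 1684867, minus strand) encodes a large protein of the spliceosome, which cradles the catalytic RNA core. It had 1724 counts in the COL17A1 siRNA library and 6471 in the control library, or 7.04 and 35.71 FPKM after COL17A1 siRNA and in the control. This is 5.21-fold lower, a log2 ratio of -2.38 [-2.46 to -2.31], rank 21 from the lowest ratio among 13375 tested genes. Among the 54 members PRPF8 ranked 48 by FPKM after COL17A1 siRNA and 18 in the control. The gene that overlaps PRPF8 on the opposite strand had 0 counts in both libraries.

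Before the adjustment described below, the partners of PRPF8 in the U5 snRNP stayed within 1.5-fold, and SNRNP200, EFTUD2 and PRPF6 lay close together. After the adjustment these 3 genes were at -0.30, -0.30 and -0.67, and PRPF6 passed 1.5-fold. SNRNP200, the helicase that unwinds U4 from U6, had 6230 counts in the COL17A1 siRNA library and 6082 in the control library, a log2 ratio of -0.44 [-0.49 to -0.39]. EFTUD2, the GTPase of U5, was at -0.40 [-0.49 to -0.31], with 2016 counts after COL17A1 siRNA and 1920 in the control. The level of PRPF8 relative to SNRNP200, as a ratio of FPKM, was 0.273 after COL17A1 siRNA and 1.05 in the control, and that of SNRNP200 relative to EFTUD2 was 2.81 and 2.88. PRPF8 and SNRNP200 are of similar exonic size, 11340 and 11188 bases, and of similar GC content, 52.7% and 52.2%. PRPF6, which bridges U5 to the U4/U6 part and was the most abundant gene of the group by mean FPKM (32.7 and 43.29 FPKM after COL17A1 siRNA and in the control), was at -0.44 [-0.53 to -0.36]. SNRNP40, the WD-repeat protein of U5, was at -0.03 [-0.18 to 0.13], an interval that includes 0.

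Among the U4/U6 proteins, PRPF4 was at -0.55 [-0.65 to -0.45] while its binding partner PRPF3 was at -0.03 [-0.16 to 0.11]. PRPF31, which stabilises the U4/U6 duplex with its proteins, had the highest ratio of the group, 0.18 [0.02 to 0.34], with 858 counts in the COL17A1 siRNA library and 545 in the control library, and -0.12 after the adjustment described below. SNRNP27, a small tri-snRNP protein rich in serine and arginine, was at 0.00 and PRPF18, a factor of the second catalytic step, at -0.13, each with an interval that includes 0. Of these 10 genes 1 was at least 1.5-fold lower (10%, against 11.7% of all tested genes), 0 were higher (against 12.2%) and 9 were neither.

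**Figure D2:**
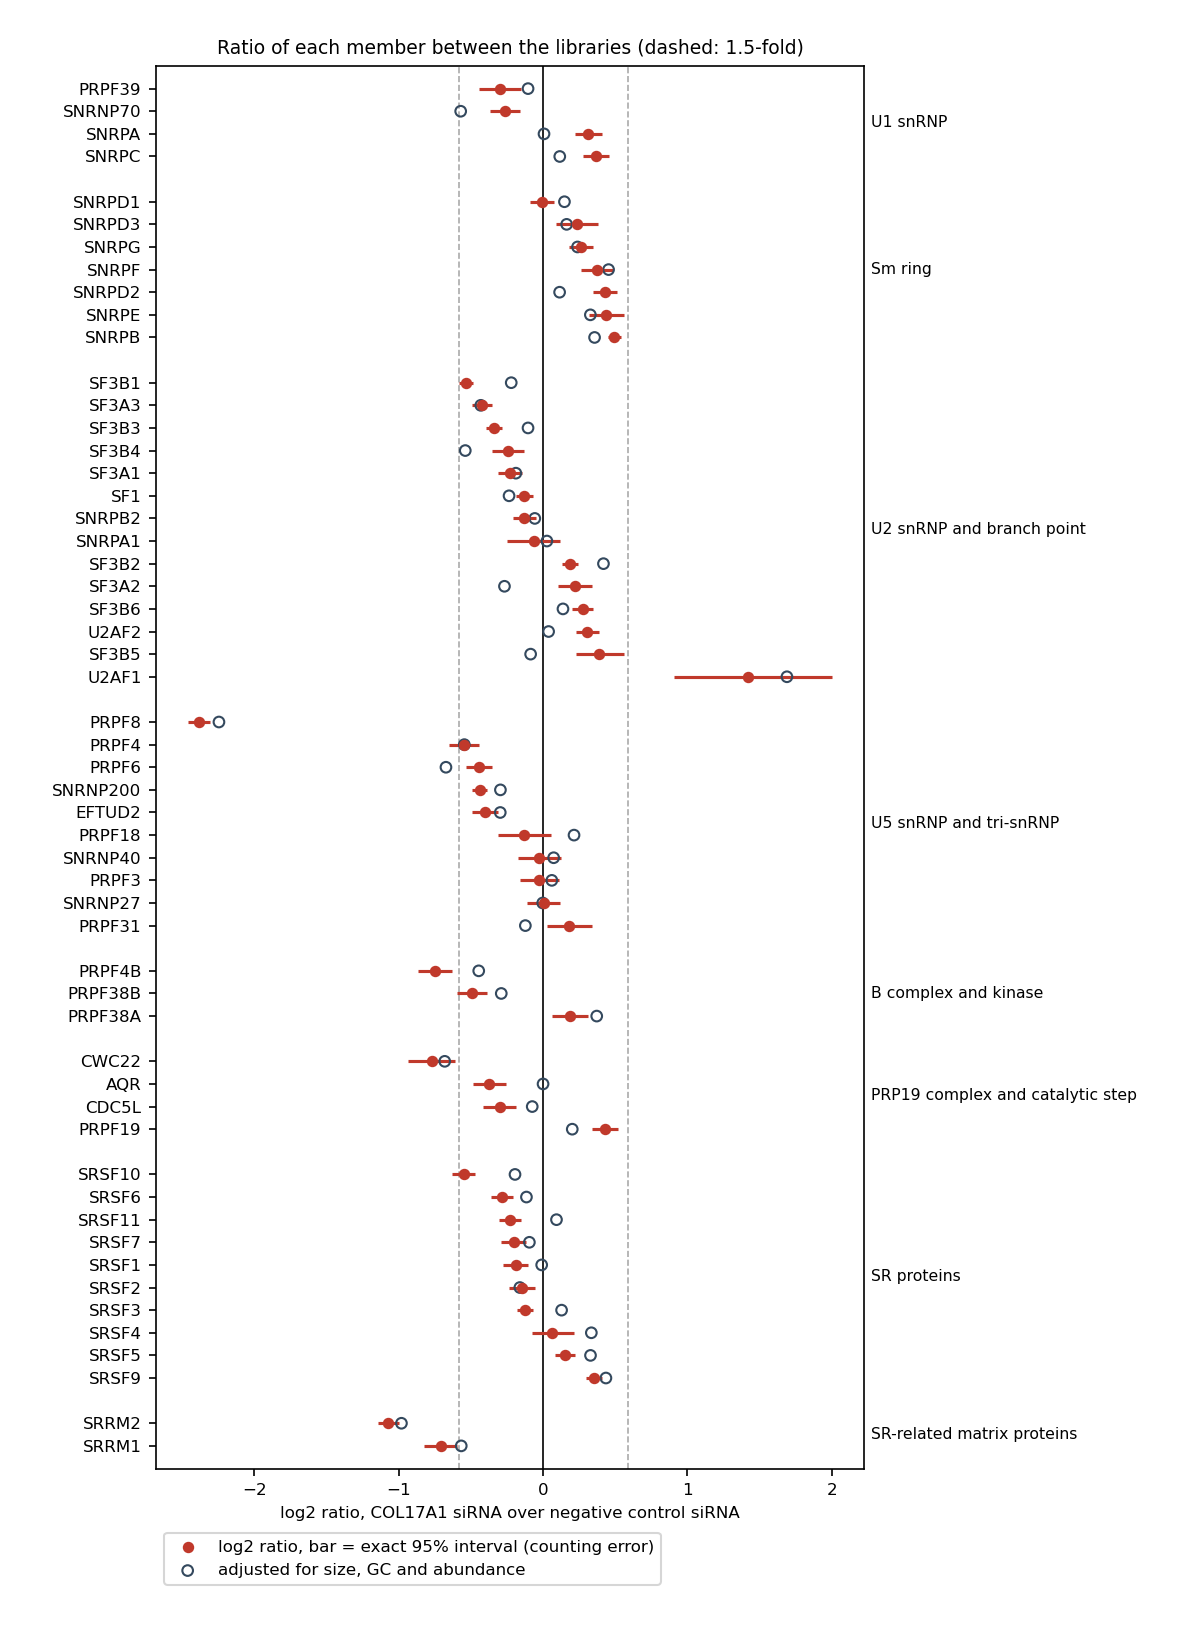
Log2 ratio of each member, COL17A1 siRNA over negative control siRNA, 1 library each (red points, bars are exact 95% intervals from the counts), and the same after adjustment for exonic size, GC content and abundance (open circles); dashed lines mark 1.5-fold. PRPF8 lies at -2.38, and 6 of 7 Sm ring genes lie above 0 with intervals that exclude it.

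Both SR-related matrix proteins were lower after COL17A1 siRNA. SRRM2 (ENSG00000167978, GRCh38 chromosome 16, 2752626 to 2772538, plus strand) encodes a scaffold of nuclear speckles, the bodies in which splicing factors gather, and is present in active spliceosomes. It had 2547 counts in the COL17A1 siRNA library and 3858 in the control library, or 9.09 and 18.62 FPKM after COL17A1 siRNA and in the control, 2.10-fold lower with a log2 ratio of -1.07 and an interval that excludes 0. It overlaps ELOB on the opposite strand, which had 1521 counts after COL17A1 siRNA and 620 in the control, a difference in the other direction whose part in the SRRM2 count was not tested. SRRM1 (ENSG00000133226, GRCh38 chromosome 1, 24631716 to 24673281, plus strand), a splicing coactivator that bridges SR proteins and snRNPs on exons, had 1188 counts in the COL17A1 siRNA library and 1399 in the control library and a log2 ratio of -0.71 [-0.82 to -0.60]. After an adjustment that took out the trend of the ratio over all genes with exonic size, GC content and abundance, SRRM2 was at -0.98 and SRRM1 at -0.57, under 1.5-fold.

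The 10 SR protein genes stayed within 1.5-fold and were not uniform in direction. Of them 7 had an interval below a ratio of 1 and 2 above it, beside 32.4% and 33.1% of all tested genes, and their median log2 ratio was -0.17. SRSF10, which represses splicing when dephosphorylated, was the lowest at -0.55 [-0.63 to -0.47], with 2461 counts in the COL17A1 siRNA library and 2593 in the control library. SRSF9 was both the highest in ratio, at 0.35 [0.29 to 0.41], and the most abundant, with 83.63 and 63.76 FPKM after COL17A1 siRNA and in the control. SRSF3, the shortest classical SR protein, had 6402 counts in the COL17A1 siRNA library and 5030 in the control library and a log2 ratio of -0.13 [-0.18 to -0.07]. SRSF1, the founding member of the family, was at -0.19, SRSF2 at -0.15, SRSF6 at -0.29, SRSF7 at -0.20, SRSF11 at -0.23 and SRSF5 at 0.15. SRSF4 was at 0.06 [-0.08 to 0.21], an interval that includes 0. After the adjustment the median of the SR protein genes was 0.04 and their range -0.19 to 0.43, with SRSF3 and SRSF11 changing sign to 0.13 and 0.09.

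The Sm genes, which encode the ring of proteins that encloses the U1, U2, U4 and U5 RNAs, lay mostly above the control after COL17A1 siRNA, and none reached 1.5-fold. Of 7 genes 6 had an interval above a ratio of 1, as 33.1% of all tested genes had, and the median log2 ratio was 0.37. SNRPB was the highest at 0.49 [0.45 to 0.54], with 10612 counts in the COL17A1 siRNA library and 5425 in the control library. SNRPE was at 0.44, SNRPF at 0.37, SNRPG at 0.26 and SNRPD3 at 0.23. SNRPD2, the most abundant Sm gene by FPKM (109.29 and 78.91 FPKM after COL17A1 siRNA and in the control), was at 0.43 [0.35 to 0.51]. SNRPD1 was the exception at -0.01 [-0.09 to 0.07], with 2986 counts in the COL17A1 siRNA library and 2162 in the control library. The adjusted ratios of the 7 genes ran from 0.11 to 0.45, with a median of 0.24. Processed copies could take reads of these genes: the table lists 20 pseudogenes of SNRPG with 76 counts after COL17A1 siRNA and 57 in the control, and 10 of SNRPE with 62 and 40.

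The U1 proteins divided between both directions. SNRPC, which contacts the duplex of U1 and the 5' splice site, was the highest and the most abundant, at 0.37 [0.28 to 0.46] with 2724 counts in the COL17A1 siRNA library and 1522 in the control library. SNRPA, which binds a stem-loop of U1 RNA, was at 0.31 [0.22 to 0.41]. SNRNP70, the protein through which SR proteins contact U1, was at -0.26 [-0.37 to -0.16]. PRPF39, a U1-associated protein, was the lowest at -0.30 [-0.44 to -0.15], with 823 counts in the COL17A1 siRNA library and 729 in the control library. None of the 4 reached 1.5-fold, and after the adjustment SNRPA was at 0.01 and SNRNP70 at -0.57.

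Genes of the U2 snRNP and of branch point recognition also divided, and the SF3A and SF3B subunits, which work as one particle, did not share a direction. SF3B1, which clamps the helix of U2 and the branch point, was the lowest of the 14 genes of the group at -0.53 [-0.59 to -0.48], with 5915 counts in the COL17A1 siRNA library and 6170 in the control library. SF3A3 was at -0.42, SF3B3 at -0.34, SF3B4 at -0.25 and SF3A1 at -0.23. On the other side, SF3B2 was at 0.19, SF3A2 at 0.22 and SF3B5 at 0.39, and SF3B6, which sits next to the branch point adenosine, at 0.27 [0.20 to 0.35] with 4054 counts in the COL17A1 siRNA library and 2416 in the control library. Of these 9 subunits 5 had an interval below a ratio of 1 and 4 above it, beside 32.4% and 33.1% of all tested genes. The adjusted ratio of SF3A2 changed sign to -0.27 and that of SF3B5 to -0.09. After the adjustment SF3B1 was at -0.22 and was no longer the lowest of the 14 genes, which was SF3B4 at -0.54. SF1, which recognises the branch point before U2 arrives, was at -0.13, and the U2 RNA-binding proteins SNRPB2 and SNRPA1 were at -0.13 and -0.07, the interval of SNRPA1 including 0. U2AF2, which binds the polypyrimidine tract, was at 0.31 [0.23 to 0.39], and at 0.04 after the adjustment.

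U2AF1 (ENSG00000160201, GRCh38 chromosome 21, 43092956 to 43107570, minus strand) encodes the partner of U2AF2 that reads the 3' splice site, and its count is uncertain. It had 139 counts in the COL17A1 siRNA library and 37 in the control library, a log2 ratio of 1.42 [0.90 to 2.00], and its level of 0.58 and 0.21 FPKM after COL17A1 siRNA and in the control stood against 39.61 and 31.18 FPKM for U2AF2 in the same order of libraries. The same assembly carries a second copy (ENSG00000275895, chromosome 21, 6484623 to 6499248), and transcripts of equal length from both copies differed at 2 of 1675 bases and 1 of 1019 bases in GENCODE release 29. The deposited exonic sizes were 11095 bases for U2AF1, 945 for the copy and 4040 for U2AF2. The compared transcripts are thus not the gene models that were counted, and FPKM depends on these sizes. The copy had 37 counts after COL17A1 siRNA and 30 in the control. Summed over both copies the counts were 176 and 67, a log2 ratio of 0.91 [0.51 to 1.35]. How reads that match both copies were counted is not given in the sources used here.

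CWC22 and PRPF4B were the remaining members at least 1.5-fold lower. CWC22 (ENSG00000163510, GRCh38 chromosome 2, 179944876 to 180007297, minus strand) encodes the protein that brings the helicase EIF4A3 of the exon junction complex to the spliceosome. It had 573 counts in the COL17A1 siRNA library and 705 in the control library, a log2 ratio of -0.77 [-0.93 to -0.61]. The other genes of the PRP19 complex and the catalytic step were AQR, an intron-binding helicase, at -0.37, CDC5L, a core component, at -0.30, and PRPF19, the ubiquitin ligase of the complex, at 0.43 [0.34 to 0.52] with 2764 counts in the COL17A1 siRNA library and 1478 in the control library. PRPF19 was the most abundant of these 4 genes and the one with a ratio above 1. After the adjustment CWC22 was at -0.68, AQR at -0.0006, CDC5L at -0.08 and PRPF19 at 0.20. PRPF4B (ENSG00000112739, GRCh38 chromosome 6, 4021267 to 4064983, plus strand) encodes a kinase that phosphorylates tri-snRNP proteins on assembly. It had 1060 counts in the COL17A1 siRNA library and 1284 in the control library, a log2 ratio of -0.75 [-0.87 to -0.63], and after the adjustment -0.45, under 1.5-fold. The B complex proteins PRPF38A and PRPF38B lay apart. PRPF38A was at 0.19 [0.06 to 0.31], with 1364 counts in the COL17A1 siRNA library and 863 in the control library, and PRPF38B at -0.50 [-0.60 to -0.39], with 1489 counts in the COL17A1 siRNA library and 1512 in the control library.

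Short members had higher ratios than long ones, as tested genes in general did. Of 15 members under 3000 bases 12 had ratios above 1, with a median log2 ratio of 0.27, beside 0.35 over 3059 tested genes of that size. Of 20 members from 3000 to 6000 bases 6 had ratios above 1, with a median of -0.10 beside 0.07 over 4780 tested genes. Of 19 members of 6000 bases or more 3 had ratios above 1, with a median of -0.37 beside -0.17 over 5536 tested genes. Across the 54 members, which share both libraries and their depth, Pearson's r between the log2 ratio and log2 exonic size was -0.44 and Spearman's rho -0.54. Without PRPF8 and U2AF1, the members farthest from the rest by ratio, they were -0.60 and -0.59 (n = 52). Over 13258 tested genes with a GC content they were -0.33 and -0.38. With GC content rho was 0.17 over the members and 0.37 over the tested genes. Size moved with the ratio over all genes of these libraries, and its part in the single ratios was not tested. Once size, GC content and abundance were adjusted for, the median of the members was -0.03, PRPF8 was at -2.25, SRRM2 at -0.98 and CWC22 at -0.68, and PRPF6 passed 1.5-fold at -0.67.

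**Figure D3:**
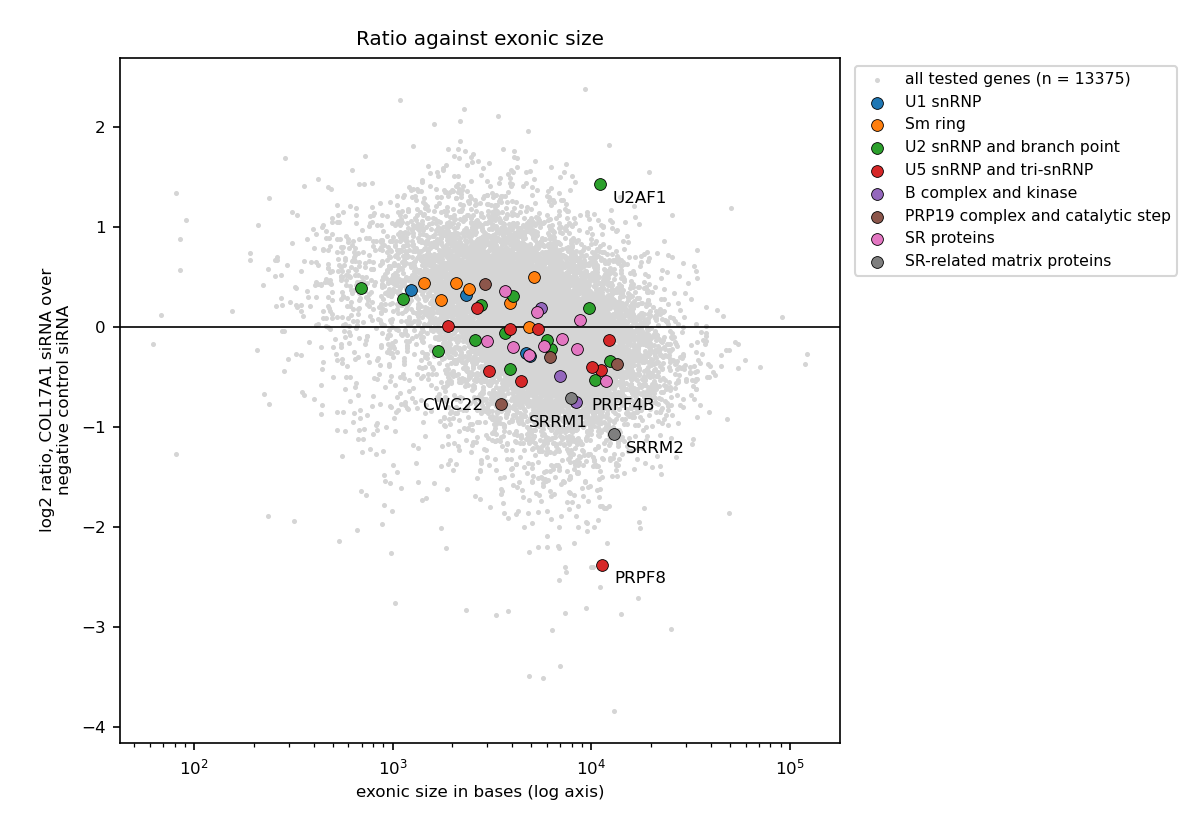
Log2 ratio, COL17A1 siRNA over negative control siRNA, against exonic size in bases (log axis) for all 13375 tested genes (grey) and the members, coloured by role. Of the members under 3000 bases 12 of 15 lie above 0, and of those of 6000 bases or more 3 of 19, and PRPF8 at -2.38 and U2AF1 at 1.42 lie away from other members of their size.

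Other splicing genes were taken from 12 lists of 168 symbols, of which 164 were tested. Of these 16 were at least 1.5-fold lower after COL17A1 siRNA (9.76%, against 11.7% of all tested genes) and 7 higher (4.27%, against 12.2%), and the median log2 ratio was -0.07. Neither share exceeds that of all tested genes, so the genes named next are given as single values and not as a result about the lists. The lower ones included PPIG, a cyclophilin with a domain rich in serine and arginine, with 1024 counts in the COL17A1 siRNA library and 2129 in the control library and a log2 ratio of -1.53 [-1.64 to -1.42]. DDX46, the helicase that prepares the U2 snRNP for the branch point, was at -1.28 [-1.40 to -1.17], with 969 counts in the COL17A1 siRNA library and 1698 in the control library, and overlaps C5orf24 on its strand. The U2-associated genes U2SURP and DDX42 were at -0.88 and -0.81. In the list of Sm protein assembly, 2 of 17 genes were lower (11.8%, against 11.7% of all tested genes) and 0 higher, GEMIN5, which recognises snRNA precursors, at -1.08 [-1.23 to -0.94] and PHAX, their export adaptor, at -0.68.

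Among 15 other SR and SR-related genes 3 were lower (20%), SCAF8, SREK1 and THRAP3, at -0.92, -0.76 and -0.59, and 0 were higher. Over all tested genes 11.7% were lower and 12.2% higher, the background for each list in this paragraph. Of 10 kinases, phosphatase subunits and importers of SR proteins 1 was lower (10%), PPP1R8, at -0.65, and 0 were higher. Proteins of the hnRNP genes coat nascent RNA and often oppose SR proteins. Of 27 such genes 3 were lower (11.1%), HNRNPA3, PTBP3 and HNRNPU, at -0.88, -0.77 and -0.72. PCBP2, named after its value was seen, was the 1 higher gene (3.7%), at 0.73. RBM25, a U1-associated protein, was at -0.59, TFIP11, which acts in disassembly, at -0.77 and GPATCH1 at -0.71. After the adjustment HNRNPU was at -0.19, RBM25 at -0.22, SREK1 at -0.26, PTBP3 at -0.46, U2SURP at -0.49 and THRAP3 at -0.55, all under 1.5-fold.

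The other higher genes belonged to the lists of the tri-snRNP, the minor spliceosome, the B complex and the U2 proteins. They included LSM4 of the ring on U6 RNA at 0.61 [0.54 to 0.69], PPIH, a cyclophilin of the tri-snRNP, at 0.69, UBL5, a ubiquitin-like protein, at 0.68, and the U11/U12 proteins ZMAT5 and SNRNP25 at 1.12 and 0.71. ZMAT5 had 134 counts in the COL17A1 siRNA library and 44 in the control library. U2AF1L4, a paralog of U2AF1 named after its value was seen, was at 0.82. In the lists of the PRP19 complex and of the exon junction complex 0 of 16 and 0 of 10 genes were at least 1.5-fold apart. Over all tested genes 11.7% were lower and 12.2% higher. The gene of each list with the highest mean CPM, SNW1 and EIF4A3, was at -0.02 and 0.45. After the adjustment LSM4, UBL5, SNRNP25 and U2AF1L4 were at 0.32, 0.53, 0.34 and 0.58, under 1.5-fold. PRPF8, at -2.38, was lower than each of the 164 genes.

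**Figure D4:**
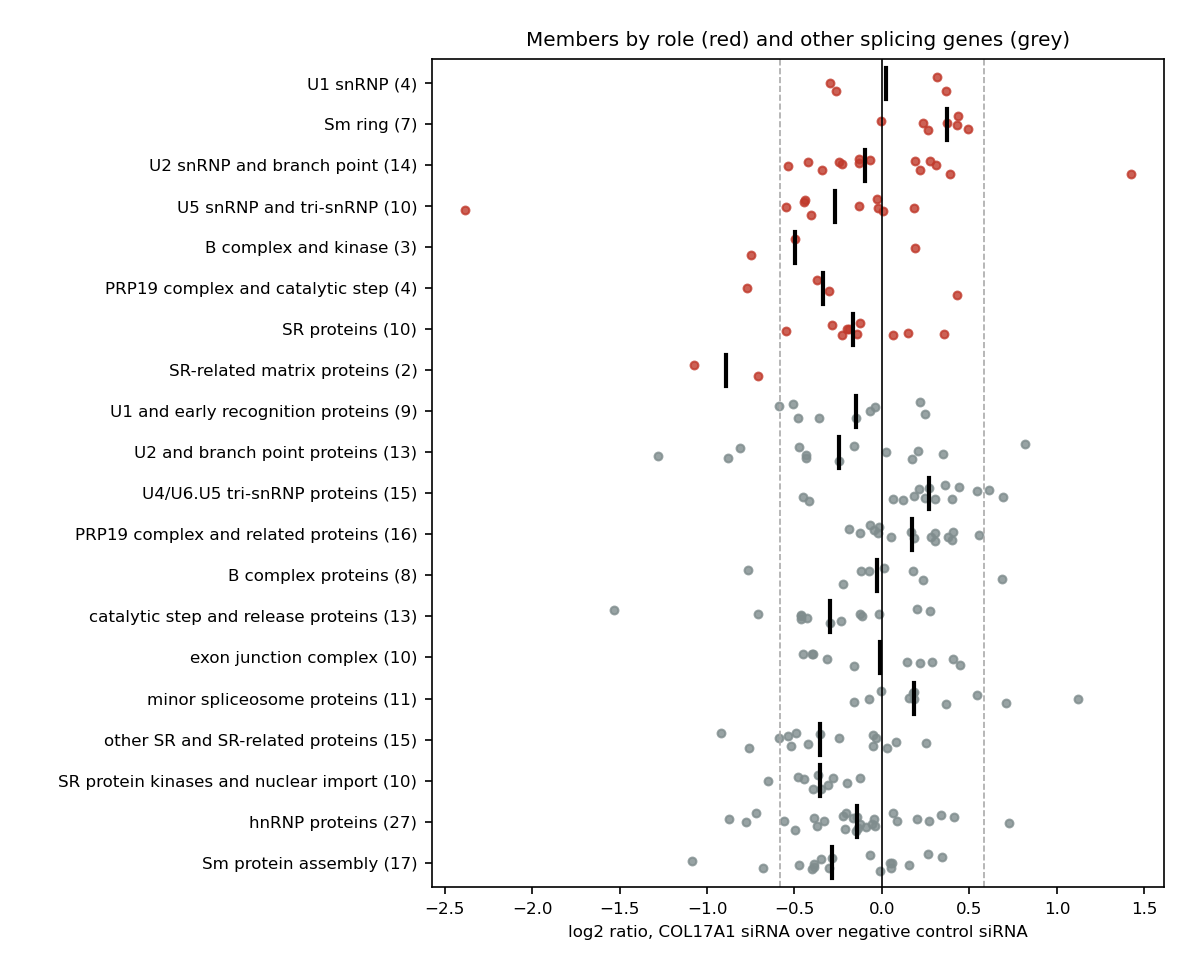
Log2 ratio, COL17A1 siRNA over negative control siRNA, of each member by role (red) and of each tested gene of 12 lists of other splicing genes (grey), with medians as black bars, gene numbers in brackets and dashed lines at 1.5-fold. PRPF8 at -2.38 is the leftmost point, followed by PPIG at -1.53.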

How the data were processed

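Gene counts of 2 libraries were used, 1 per group by the labelled treatment, and depth is the total count of each. The deposited table holds raw counts per gene, made by the authors and not normalized. Its FPKM values, per the file headers, equalled the count over exonic size and column total for 100% of genes within rounding. Per the submitters' processing notes, the tools were STAR, HISAT2 and edgeR and the genome hg38 or GRCh38, with neither roles nor versions. The kit in the labels marks strand, but whether counting used strand, and with which tool and gene models, is not given in the sources used here. Values of genes that overlap depend on it.

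TMM factors from edgeR 4.0.16 in R 4.3.3 scaled the counts, 1.01 for the COL17A1 siRNA library and 0.987 for the control. Log2 ratios used an offset of 0.5 counts, and Clopper-Pearson 95% intervals came from both counts. Lacking molecular identifiers, reads may repeat a molecule, and the intervals cover counting error only. Genes averaging 1 CPM or more over both libraries were tested, that is, set against the rule of 1.5-fold with an interval excluding a ratio of 1. GC content of the longest transcript came from GENCODE release 29 by gene identifier (99.1% of tested genes). The adjustment regressed log2 ratios, limited to 3 in size, on linear and squared terms of log2 exonic size, GC content and log2 abundance. Overlaps with genes of at least 200 exonic bases came from the deposited coordinates.

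Other settings tried were scaling by total counts or by DESeq2 1.42.0, another offset, other filters and fold rules, FPKM, an assumed coefficient of variation, the adjustment and gene type. The sum of U2AF1 and its copy was added after the data were seen. Members, lists and rules were chosen with earlier results of these data known. Named genes are each member past 1.5-fold and the most abundant by mean FPKM, highest and lowest of each role. From each other list they are up to 3 by the interval bound nearest to 1, or the gene with the highest mean CPM where none passed. The ratio, interval and call steps were tested on simulated data with counting error alone (scipy 1.17.1 and numpy 2.4.6 in Python 3.11.15, with pandas 2.3.3 for tables and matplotlib 3.10.9 for figures). That simulation held no variation between cultures and cannot show how such variation affects the calls.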

Additional observations from a re-analysis of the deposited data

How the results depend on the processing

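PRPF8 and SRRM2 stayed at least 1.5-fold lower under all 13 other settings, at log2 ratios from -2.40 to -2.25 and from -1.09 to -0.98. Other filters, gene type, a smaller fold limit and the sum of U2AF1 could not change the calls of these genes. Those settings are therefore no check on them, and a change of scaling moves the ratios of all genes by a shared amount. Scaling by DESeq2 size factors or total counts, scaling without the members, FPKM and an offset of 2 counts left the calls of all 54 members as they were. A minimum of 1 count and protein-coding genes alone did so too, but change only which genes are tested and kept all members. A 2-fold rule left 2 members lower, with 480 lower and 407 higher over all tested genes. A smaller fold limit gave 15 lower and 9 higher members, with 3070 and 3223 over all tested genes. With an assumed coefficient of variation of 0.2 between cultures 2 members were lower, PRPF8 and SRRM2, beside 727 lower and 554 higher genes in all. These differences follow from the rules themselves. At a minimum of 5 CPM U2AF1 was not tested and 0 members were higher. The adjustment left 4 members lower, PRPF8, SRRM2, CWC22 and PRPF6. With 1 library per group none could be left out. No paired analysis was possible because each group has 1 library. The ratio of U2AF1 rests on 139 counts after COL17A1 siRNA and 37 in the control. How reads that match its second copy were counted is not given, which limits this ratio.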

Other observations

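The deposited table assigns its own spliceosome pathway term to 46 of the 54 members and to 119 other tested genes. Of these 119 genes 17 were at least 1.5-fold lower (14.3%, against 11.7% of all tested genes) and 8 higher (6.72%, against 12.2%) after COL17A1 siRNA, with a median log2 ratio of 0.03. The term also covers pseudogenes and genes not known for splicing, such as IFITM3, an interferon-induced membrane protein, at 0.89, so its counts are no clean measure of the machinery. Among its genes, named after their values were seen, NCBP1, the large subunit of the nuclear cap-binding complex, had 1239 counts in the COL17A1 siRNA library and 1957 in the control library and a log2 ratio of -1.13 [-1.24 to -1.03]. Of the 3 listed subunits of the THO complex, which couples transcription and splicing to export, THOC2 and THOC1 were at -0.88 and -0.70, and THOC3 lay in the other direction at 0.43 [0.34 to 0.53].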
